A study of Mus musculus with 386 samples.

Results

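The genes described here are 9 regulators and enzymes of glucose production and glycogen storage: Pck1, G6pc, Fbp1, Pcx, Ppargc1a, Foxo1, Tat, Ppp1r3b and Ppp1r3g. They were chosen by name, with earlier results of these data known. Counts of called members and list genes are thus not independent of the data. Each is represented by a transcript cluster that the platform annotation pairs with a single gene symbol, out of 18820 genes represented in that way. Where a symbol had several clusters, the cluster with the highest mean was used, which concerned Ppargc1a alone (cluster means of 9.87 and 8.085 log2 over all arrays). Signals came from Affymetrix Mouse Gene 1.1 ST arrays hybridised with total RNA from liver, kidney, brain and lung of 23-day-old mice, with no treatment named in the labels, of both sexes. The tested animals were F1 mice of 6 reciprocal crosses, named with the dam first (CASTxPWK, PWKxCAST, CASTxWSB, WSBxCAST, PWKxWSB and WSBxPWK), and mice of the 3 inbred parent strains CAST, PWK and WSB. All were bred in a university colony within a few generations of founders from a commercial supplier. All 9 genes are autosomal. The crosses of a reciprocal pair have the same autosomal genotype. They differ in the dam, in the parent that each autosomal allele came from, in the mitochondrial genome and, in males, in the strain of the X and Y chromosomes. Each array of a cross and organ came from a separate animal per the labels, so p-values measure the spread between these animals.

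Gluconeogenesis makes glucose from lactate, glycerol and amino acids, mainly in liver and in the proximal tubule of the kidney. Pcx carboxylates pyruvate in the mitochondrion, Pck1 turns oxaloacetate into phosphoenolpyruvate, Fbp1 removes a phosphate from fructose bisphosphate, and G6pc is the catalytic subunit of the phosphatase that releases free glucose. In fasted mouse liver, glucagon through cyclic AMP and glucocorticoids raise transcription of Pck1, G6pc, Tat and the coactivator gene Ppargc1a, while insulin restrains the transcription factor Foxo1. Tat, tyrosine aminotransferase, feeds amino acid carbon into this route and is a standard glucocorticoid-responsive gene of hepatocytes. Ppp1r3b and Ppp1r3g encode subunits that bring a protein phosphatase to glycogen, where it activates glycogen synthase.

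The 250 bases before an annotated start were read from RefSeq promoters (GRCm38.p6) for 8 of the 9 genes, in 9 windows because Pcx has more than 1 listed start. Ppp1r3b was not matched. The 4 windows shown are those in which any of the searched motifs occurred. The other 5 windows, of Foxo1, Tat, Fbp1 and Pcx, held none of them. The motifs, searched on both strands, were the cyclic AMP response element TGACGTCA, its core TGACG (which lies within TGACGTCA), the forkhead element TGTTTAC, the insulin response sequence TGTTTTG and the glucocorticoid receptor core TGTTCT. Capitals mark the matches, and each window is given 5′ to 3′ on the strand of the gene.
Pck1, chr2:173152823-173153072, plus strand: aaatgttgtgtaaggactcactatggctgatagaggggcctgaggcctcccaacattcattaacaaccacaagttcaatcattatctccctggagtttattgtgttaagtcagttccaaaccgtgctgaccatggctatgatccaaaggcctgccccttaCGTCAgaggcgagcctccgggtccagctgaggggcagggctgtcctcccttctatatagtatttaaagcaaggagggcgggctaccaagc
G6pc, chr11:101367466-101367715, plus strand: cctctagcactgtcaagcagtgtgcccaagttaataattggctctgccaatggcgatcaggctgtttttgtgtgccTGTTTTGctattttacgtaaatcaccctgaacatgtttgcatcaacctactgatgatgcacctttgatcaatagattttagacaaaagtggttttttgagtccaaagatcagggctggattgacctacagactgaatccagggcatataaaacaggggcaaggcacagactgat
Ppargc1a, chr5:51567726-51567975, minus strand: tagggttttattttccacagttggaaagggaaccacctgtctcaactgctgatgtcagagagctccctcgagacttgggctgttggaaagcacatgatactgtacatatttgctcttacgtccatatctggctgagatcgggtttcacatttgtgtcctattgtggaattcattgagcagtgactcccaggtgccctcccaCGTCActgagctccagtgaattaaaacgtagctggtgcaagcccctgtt
Ppp1r3g, chr13:35967656-35967905, plus strand: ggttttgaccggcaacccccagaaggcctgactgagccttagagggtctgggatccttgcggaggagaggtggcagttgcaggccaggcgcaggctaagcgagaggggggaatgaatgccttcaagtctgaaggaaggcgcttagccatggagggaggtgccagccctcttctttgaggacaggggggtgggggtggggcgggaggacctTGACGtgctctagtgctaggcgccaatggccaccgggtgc
In Pck1 the core TGACG lay on the opposite strand, 90 to 86 bases before the start. In Ppargc1a it also lay on the opposite strand, 49 to 45 bases before the start, and in Ppp1r3g on the strand of the gene, 40 to 36 bases before it. In G6pc the insulin response sequence lay 174 to 168 bases before the start. The windows of Ppargc1a and Ppp1r3g lie inside the annotated gene spans (chr5:51454249-52115853 and chr13:35958824-35970388), so each belongs to one of several possible starts. The same holds for the Tat window (chr8:109990186-109990435, gene span 109986078-109999804). It also holds for the Pcx window chr19:4594069-4594318 (gene span 4510472-4621752). The absence of the motifs there concerns those windows only. Over all 32851 promoter windows of the same length, 1.55% held TGACGTCA, 17.8% TGACG, 3.17% TGTTTAC, 5.56% TGTTTTG and 16.1% TGTTCT. A match here is a description of the letters and not of a site in use.

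The data comprised 386 arrays from 111 animals, of which 101 were liver (9 to 13 per cross) and 102 kidney (10 to 12 per cross), and the analysis below rests on those organs. The median signal per array lay between 5.89 and 6.36 log2. Hepatocyte markers averaged 13.21 to 13.43 in liver arrays, and proximal tubule markers 12.29 to 12.65 in kidney arrays. Of the kidney arrays, 11 also carried raised hepatocyte markers, and 3 liver arrays carried markers of kidney or pancreas. Fat markers averaged 6.71 to 10.21 over kidney arrays. In 1 liver array (PWKxWSB replicate 8) Xist and the Y-linked Eif2s3y went against the labelled sex. In whole organs, fewer cells of a type and less RNA per cell cannot be told apart. Feeding state is in no label. Variants within probe sequences were not analysed here and can contribute to any difference between strains given below.

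Pck1, G6pc and Fbp1 stood near the top of the signal range in both organs. In liver, Pck1 had a lowest, median and highest signal of 11.71, 12.71 and 13.09 log2 (n = 101), and in kidney of 12.27, 12.83 and 13.13 (n = 102). G6pc averaged 12.91 ± 0.27 in liver and 12.83 ± 0.18 in kidney (SD), and Fbp1 13.01 ± 0.05 in both. These means lay at or above the 99.4th percentile of all genes of the organ, and the part of the array's upper limit in their narrow spread was not tested. Pcx averaged 12.09 ± 0.10 in liver and 11.80 ± 0.12 in kidney.

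The remaining members differed more clearly between the organs. Ppargc1a was lower in liver, at 9.82 ± 0.54, than in kidney, at 11.15 ± 0.20. Tat averaged 13.30 ± 0.13 in liver and 6.20 ± 1.14 in kidney. Ppp1r3b stood at 9.77 ± 0.36 in liver and 6.55 ± 0.31 in kidney, and Ppp1r3g at 6.91 ± 1.36 and 5.23 ± 0.27. Foxo1 had a median of 10.01 in liver and averaged 9.71 ± 0.19 in kidney, a smaller difference (0.29 ± 0.04, SE). Liver minus kidney, with 93.7% of all 12236 genes called, passed the test for 8 of the 9 members, where called means a limma adjusted p under 0.05 over all genes. Ppargc1a was 2.53-fold lower in liver and Ppp1r3b 9.39-fold higher. The size of the Ppp1r3b fold is uncertain, because its kidney mean lay close to the kidney filter on low signals. Tat and Ppp1r3g were also higher in liver, with no fold given because their kidney means lay below the kidney filter on low signals. The difference of G6pc (0.09 ± 0.03, SE) turned to -0.06 under joint quantile normalisation of both organs, and Fbp1 (-0.00, adjusted p = 0.826) was not called. In brain and lung, Pck1, G6pc, Fbp1 and Tat averaged between 5.15 and 7.72, whereas Ppargc1a reached 10.68 in brain and Foxo1 10.23 in lung.

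Kidney Tat was high mainly in arrays with raised hepatocyte markers. In the 11 kidney arrays with raised hepatocyte markers, Tat had a lowest, median and highest signal of 7.39, 8.64 and 10.71, against 4.81, 5.81 and 7.95 in the other 91 kidney arrays, with a small overlap. With kidney means of 6.20 and 5.23, Tat and Ppp1r3g fell below the kidney filter of 6.27 log2, so 7 of the 9 members were tested between crosses in kidney, while all 9 were above the liver filter of 5.96.

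Between animals of the same cross and sex, Ppp1r3g varied most in liver, with an SD of 1.13 log2, followed by Ppargc1a (0.39), Foxo1 (0.31) and Ppp1r3b (0.29). Fbp1 (0.05), Pcx (0.07) and Tat (0.09) varied least. In kidney the SDs were smaller for the regulators, 0.13 for Ppargc1a and 0.18 for Foxo1, and Ppp1r3b (0.23) varied most of the 7 tested members.

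**Figure D1:**
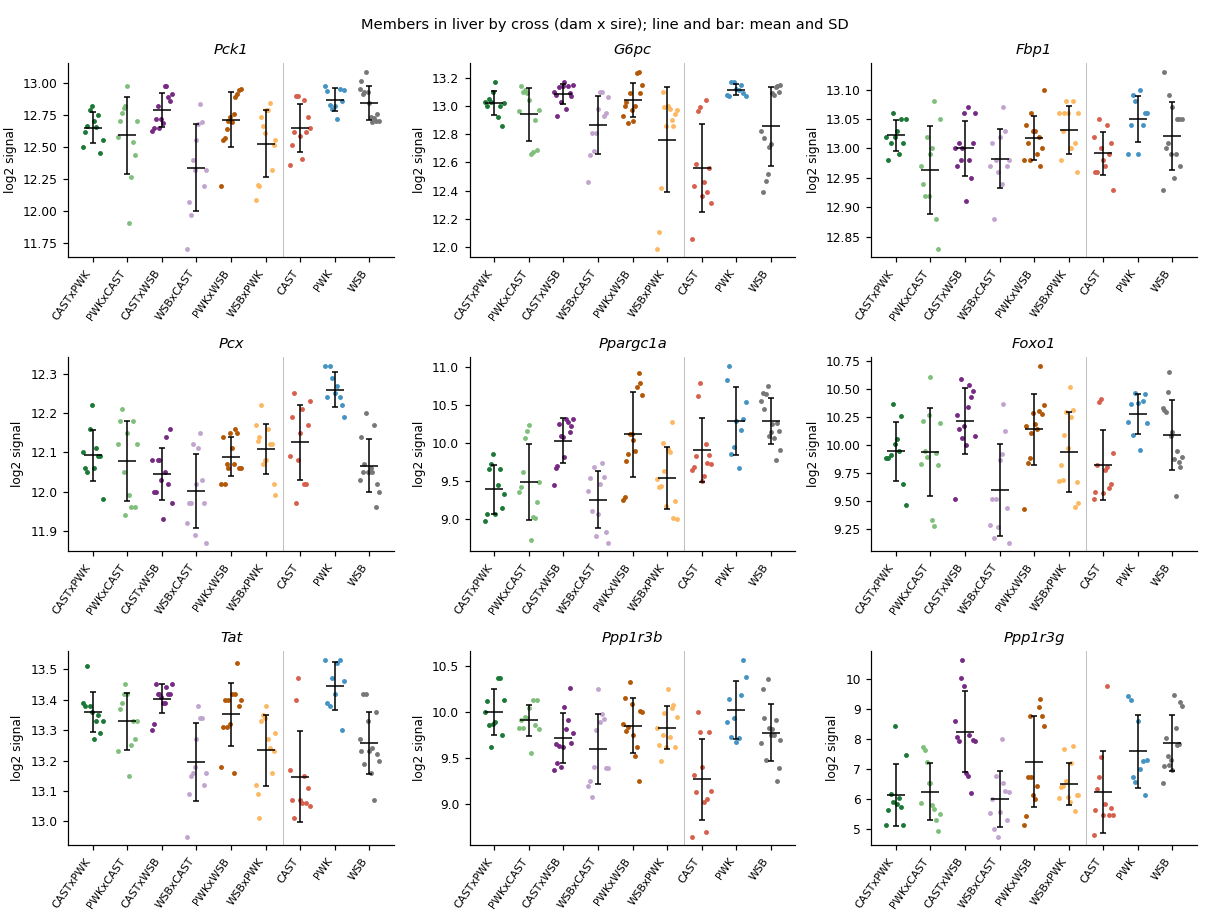
Log2 signal of each of the 9 genes in liver (vertical axes) by cross, with 1 point per animal and the mean and SD as line and bar. The 6 F1 crosses stand left of the 3 inbred strains. CASTxWSB lies above WSBxCAST for Pck1, Ppargc1a, Foxo1, Tat and Ppp1r3g, and CAST lies lowest of the inbred strains for G6pc, Tat, Ppp1r3b and Ppp1r3g.

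Among the inbred strains, CAST livers had the lowest mean of 8 of the 9 genes, all but Pcx, and PWK livers had the highest mean of all 9 crosses for 8 of the 9 genes. G6pc had a lowest, median and highest signal of 12.06, 12.46 and 13.04 in CAST livers (n = 11), against 13.07, 13.11 and 13.17 in PWK livers (n = 9). Every CAST liver was below every PWK liver. The CAST minus PWK difference was -0.55 ± 0.09 (SE, limma adjusted p = 9.11e-08). Against WSB livers, with 12.39, 12.82 and 13.15 (n = 13), CAST was lower by -0.31 ± 0.08 (adjusted p = 0.000695) and the ranges overlapped.

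Ppp1r3b showed the same order. It had 8.65, 9.15 and 10 in CAST livers, against 9.68, 9.94 and 10.57 in PWK and 9.25, 9.76 and 10.36 in WSB livers. Of 11 CAST livers, 8 lay below all PWK livers and 6 below all WSB livers. The differences were -0.72 ± 0.13 from PWK (adjusted p = 9.29e-07) and -0.49 ± 0.12 from WSB (adjusted p = 0.000161).

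Tat had 13.01, 13.07 and 13.47 in CAST livers, against 13.30, 13.46 and 13.53 in PWK livers and 13.07, 13.23 and 13.42 in WSB livers. CAST was lower than PWK by -0.29 ± 0.04 (adjusted p = 1.61e-09), with 9 of 11 CAST livers below all PWK livers. PWK was higher than WSB by 0.19 ± 0.04 (adjusted p = 1.27e-05). Pcx was highest in PWK livers, at 12.19, 12.25 and 12.32, against 11.96, 12.05 and 12.20 in WSB livers, and 8 of 9 PWK livers were above all WSB livers (0.20 ± 0.03, adjusted p = 6.59e-08). CAST livers had 11.97, 12.15 and 12.25 and were lower than PWK by -0.14 ± 0.03 (adjusted p = 0.000199).

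Ppp1r3g was the most variable. It had 4.81, 5.71 and 9.75 in CAST livers, against 6.54, 7.78 and 9.46 in WSB livers, and 8 of 11 CAST livers lay below all WSB livers. The difference was -1.67 ± 0.45 on the log2 scale (adjusted p = 0.000941). The CAST median lay below the liver filter of 5.96, so the size of this difference is uncertain. Foxo1 was lower in CAST than in PWK by -0.45 ± 0.13 (adjusted p = 0.00332), with medians of 9.78 in CAST and 10.37 in PWK livers.

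Over all members, CAST minus PWK in liver gave 8 lower and 0 higher, where 50.1% of all genes were called. CAST minus WSB gave 6 lower, with 57% of all genes called, and PWK minus WSB gave 3 higher (G6pc, Pcx and Tat), with 55.3% called. Each pair of these comparisons shares the animals of a strain. Neighbouring animal numbers fell into 26 runs, which the labels do not call litters, and values within a run were more alike than between runs (consensus correlation 0.212 in liver). With runs as a random block, the CAST minus PWK calls of G6pc, Pcx, Foxo1, Tat, Ppp1r3b and Ppp1r3g held (adjusted p between 1.06e-06 and 0.048). Those of Pck1 (-0.22 ± 0.08, blocked adjusted p = 0.0732) and Fbp1 (-0.06 ± 0.02, blocked 0.142) did not. For CAST minus WSB, G6pc (blocked 0.00735), Ppp1r3b (0.00447) and Ppp1r3g (0.0146) held, and Pck1 (-0.19, blocked 0.108), Ppargc1a (-0.35, blocked 0.132) and Tat (-0.10, blocked 0.0874) were lost.

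Runs of a strain differed in G6pc. The CAST runs averaged 12.36, 12.97, 12.41, 13.04 and 12.42, the PWK runs 13.08, 13.14 and 13.10, and the WSB runs 12.82, 12.60, 13.10 and 13.13. Without the WSB run of 6 animals (run 2, mean 12.60), the PWK minus WSB difference was 0.01 in place of 0.25 ± 0.08 (adjusted p = 0.0103, blocked 0.0528). The calls of Pck1 (CAST minus PWK) ended without CAST liver replicate 1 or 7 or PWK liver replicate 1 (-0.18, -0.20 and -0.20), and those of Tat (CAST minus WSB) without CAST liver replicate 2 or 3 (-0.08 and -0.07). Without the first CAST run of 3 animals, CAST minus WSB was -0.12 for G6pc and -0.23 for Ppp1r3b, and CAST minus PWK was -0.22 for Foxo1, none of them called. Without that WSB run, CAST minus WSB of Ppp1r3b was -0.19 and not called either. PWK minus WSB of G6pc was also lost without the second PWK run (0.22). Leaving out PWK liver replicate 1 or 2 ended the CAST minus PWK call of Ppp1r3g (-1.11 and -1.14 in place of -1.38 ± 0.49), and so did leaving out the first PWK run or the first or last CAST run (-0.87, -0.94 and -1.01).

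Lists of related genes held called genes in both directions between CAST and PWK livers, where 50.1% of all genes were called, and the first 3 shares below are near that background. Of 23 tested glycogen metabolism genes, 9 were higher and 3 lower in CAST (median 0.10), and of 17 other gluconeogenesis enzymes and carriers, 5 were higher and 4 lower (median 0.02). Of 30 hormone signalling and transcription regulators, 8 were higher and 7 lower. Of 10 glucocorticoid-induced genes, 2 were higher and 7 lower, with a median of -0.82. The hepatocyte markers gave 1 higher and 5 lower of 7 (median -0.09), averaging 13.27 ± 0.03 in CAST and 13.31 ± 0.04 in PWK livers, and their part in the member differences was not tested. A fasting-fed index was formed as the mean of 9 fasting-induced minus the mean of 11 fed-induced liver genes. It was -0.27 ± 0.30 in CAST, -0.38 ± 0.42 in PWK and 0.11 ± 0.20 in WSB livers (SD). Its means in the CAST runs were -0.52, 0.17, -0.30, -0.03 and -0.39, in the order given for G6pc. The glucocorticoid-induced genes averaged 9.95 ± 0.40 in CAST, 10.63 ± 0.27 in PWK and 10.76 ± 0.20 in WSB livers. The part of feeding state in the strain differences was not tested.

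**Figure D2:**
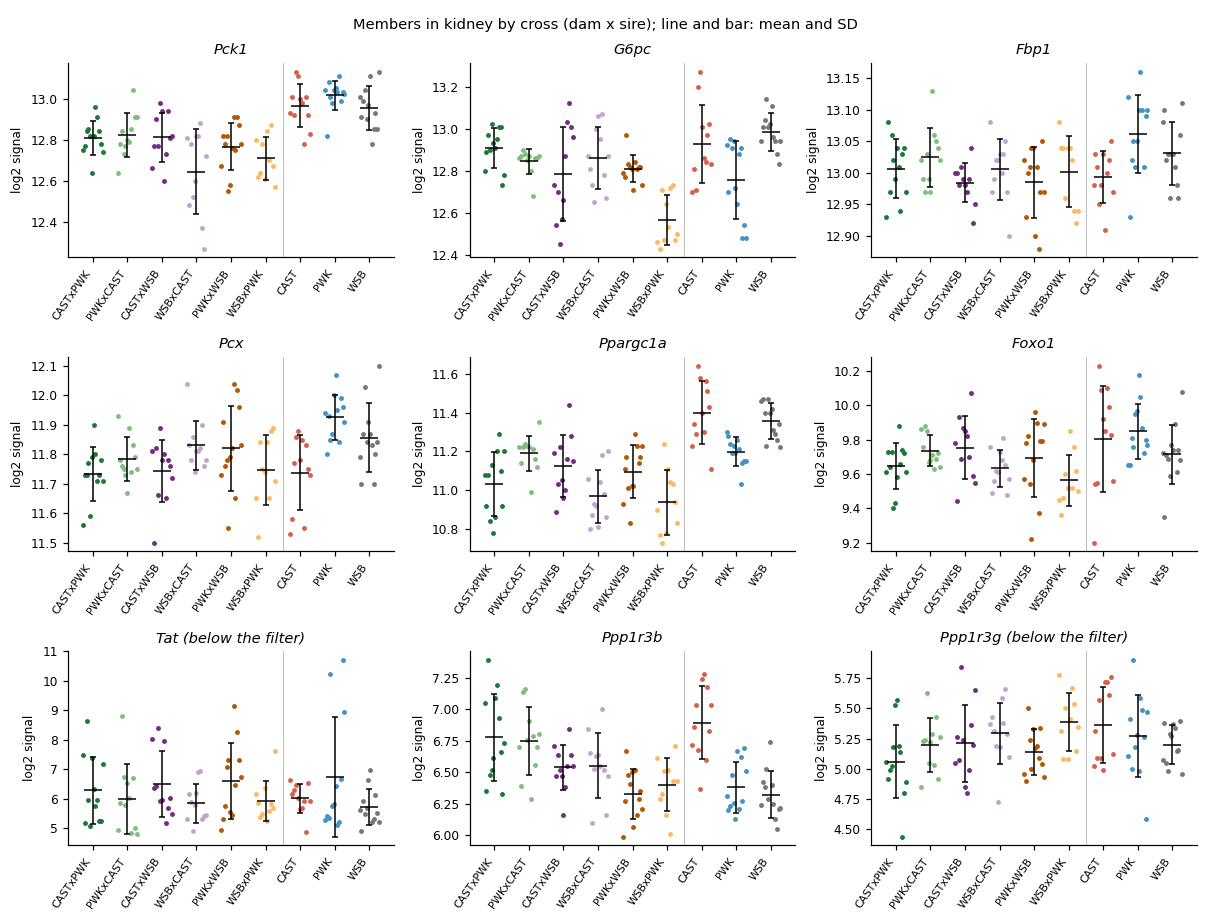
Log2 signal of each of the 9 genes in kidney (vertical axes) by cross, with 1 point per animal and the mean and SD as line and bar. The means of Ppargc1a and Pck1 lie lower in the F1 crosses than in the inbred strains, and Ppp1r3b is highest in CAST and the CAST-PWK crosses. The Tat points above 7.95 belong to arrays with raised hepatocyte markers, and below that value the arrays with and without them overlap.

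In kidney the strain order of several members was not that of liver. Ppp1r3b was highest in CAST kidneys, at 6.37, 6.86 and 7.28 (lowest, median and highest, n = 11), against 6.13, 6.29 and 6.69 in PWK (n = 12) and 6.05, 6.27 and 6.74 in WSB kidneys (n = 12). Of 11 CAST kidneys, 8 were above all PWK kidneys and 7 above all WSB kidneys. The differences were 0.50 ± 0.10 from PWK (adjusted p = 5.29e-06, blocked 0.00209) and 0.56 ± 0.10 from WSB (adjusted p = 4.35e-07, blocked 0.000514). The PWK and WSB medians lay close to the kidney filter of 6.27 log2, so the size of these differences is uncertain.

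Ppargc1a had 11.11, 11.40 and 11.64 in CAST kidneys, against 11.03, 11.20 and 11.30 in PWK kidneys, and was higher in CAST by 0.20 ± 0.05 (adjusted p = 0.000682, blocked 0.00887). WSB kidneys had 11.22, 11.37 and 11.47. G6pc had 12.70, 12.86 and 13.27 in CAST kidneys, against 12.48, 12.80 and 12.95 in PWK kidneys. CAST was higher by 0.17 ± 0.05 (adjusted p = 0.00427, blocked 0.00946), a call lost without the second CAST run (0.08) or the third PWK run (0.07). PWK was lower than WSB, with 12.83, 12.98 and 13.14 in WSB kidneys, by -0.23 ± 0.05 (adjusted p = 0.000116, blocked 0.0021). Pcx was lower in CAST than in PWK kidneys by -0.19 ± 0.04 (adjusted p = 8.67e-05, blocked 0.00314), as in liver.

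CAST minus PWK in kidney gave 3 members higher and 2 lower of 7 tested, with 60.1% of all genes called. CAST minus WSB gave 1 higher and 1 lower with 59.6% called, and PWK minus WSB gave 2 lower with 60.7% called. Calls that ended with runs as a block were Pcx in CAST minus WSB (-0.12, blocked adjusted p = 0.0762) and Ppargc1a in PWK minus WSB (-0.16, blocked 0.0602). The Pcx call was also lost without CAST kidney replicate 1 (-0.09) or WSB kidney replicate 12 (-0.09). The mean of the fat markers was 9.05 ± 0.56 in CAST, 8.70 ± 0.74 in PWK and 8.48 ± 0.50 in WSB kidneys (SD), with overlapping ranges. In CAST, 3 of 7 tested fat markers were higher than in PWK, where 60.1% of all genes were called. Against WSB 5 of 7 were higher, where 59.6% were called. With the fat marker mean as a covariate, chosen after seeing the data, all 5 CAST minus PWK calls were kept.

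The strain difference itself differed between the organs for several members. For these tests the liver and kidney of the same animals were paired, over 10348 genes. The effect in liver minus the effect in kidney for CAST minus PWK was -1.19 for Ppp1r3b, -0.75 for G6pc, -0.59 for Ppargc1a and -0.35 for Foxo1, with 38.7% of all genes called. For CAST minus WSB it was -1.10 for Ppp1r3b, -0.41 for Ppargc1a, -0.37 for Foxo1, -0.21 for G6pc and 0.17 for Pcx, with 38.5% called. G6pc also differed for PWK minus WSB (0.54, with 42.2% called). With runs as a block, Foxo1 in both contrasts (adjusted p = 0.0788 and 0.0541), G6pc (0.117) and Ppargc1a (0.0687) in CAST minus WSB were no longer called. The size of the Ppp1r3b values is uncertain, because its kidney signal lay close to the kidney filter.

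The reciprocal crosses of CAST and WSB differed in liver in 5 of the 9 members, all higher when CAST was the dam, where 5.62% of all genes were called. None of these 5 calls was kept with runs as a random block (adjusted p between 0.0766 and 0.224). Pck1 had 12.63, 12.77 and 12.98 in CASTxWSB livers (lowest, median and highest, n = 12), against 11.71, 12.32 and 12.84 in WSBxCAST livers (n = 11). All 12 CASTxWSB livers were above the WSBxCAST median, and 5 were above every WSBxCAST liver. The difference was 0.42 ± 0.08 (SE, adjusted p = 0.000115).

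Ppargc1a had 9.44, 10.12 and 10.31 in CASTxWSB livers, against 8.69, 9.37 and 9.73 in WSBxCAST livers. Of 12 CASTxWSB livers, 9 were above every WSBxCAST liver (0.76 ± 0.16, adjusted p = 0.000815). Foxo1 had 9.52, 10.22 and 10.59 in CASTxWSB livers, against 9.13, 9.52 and 10.37 in WSBxCAST livers, and 4 CASTxWSB livers were above every WSBxCAST liver (0.59 ± 0.12, adjusted p = 0.000835). Tat had 13.30, 13.42 and 13.45 in CASTxWSB livers, against 12.95, 13.16 and 13.38 in WSBxCAST livers, and 10 of 12 were above every WSBxCAST liver (0.20 ± 0.04, adjusted p = 0.000138).

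Ppp1r3g moved most. It had 6.18, 8.02 and 10.62 in CASTxWSB livers, against 4.74, 6.0 and 8.0 in WSBxCAST livers, and 6 of 12 were above every WSBxCAST liver. The difference was 2.19 ± 0.46 on the log2 scale (adjusted p = 0.000774), and its size is uncertain because WSBxCAST livers averaged 5.99, close to the filter of 5.96. G6pc (0.21 ± 0.08, adjusted p = 0.125), Ppp1r3b (0.09), Pcx (0.04) and Fbp1 (0.02) were not called.

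**Figure D3:**
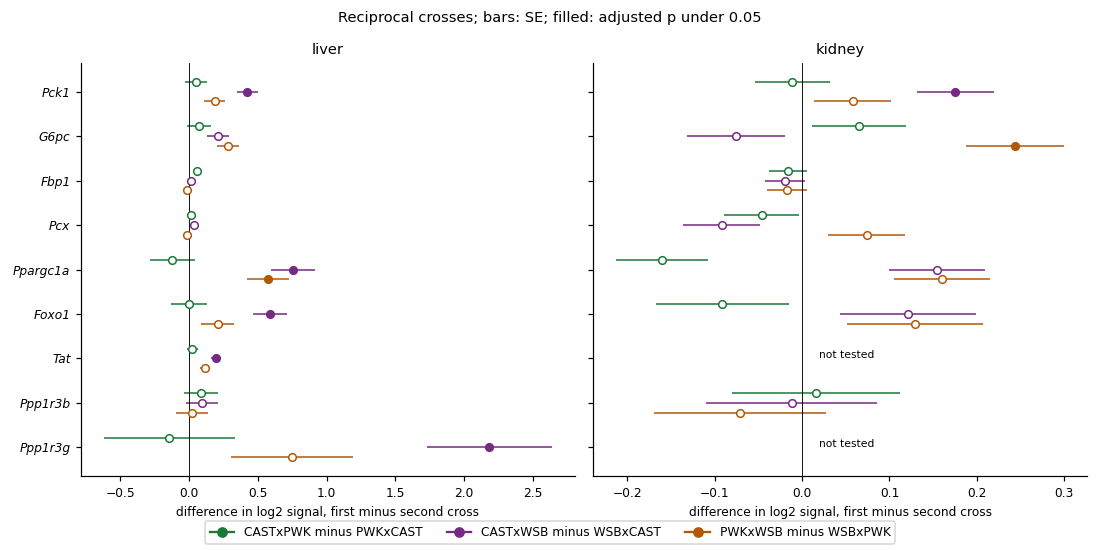
Difference in log2 signal between reciprocal crosses (horizontal axis, first minus second cross) for each gene in liver and kidney, with SE bars and filled points for an adjusted p under 0.05. CASTxWSB minus WSBxCAST is filled for 5 genes in liver, at 0.20 to 2.19, and for Pck1 in kidney, from the fit without the run block, with which none of these was called.

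With runs as a random block the differences were 0.40 for Pck1 (adjusted p = 0.0893), 0.83 for Ppargc1a (0.0766), 1.97 for Ppp1r3g (0.224), and Foxo1 and Tat had adjusted p = 0.197 and 0.112. CASTxWSB livers came from 3 runs and WSBxCAST livers from 2. Pck1 averaged 12.70, 12.88 and 12.89 in the CASTxWSB runs, against 12.36 and 12.26 in the WSBxCAST runs. Ppargc1a averaged 9.87, 10.14 and 10.27 in the CASTxWSB runs, against 9.36 and 8.76, and Tat 13.39, 13.41 and 13.44 against 13.21 and 13.14. Every CASTxWSB run mean was thus above both WSBxCAST run means for these genes and for Foxo1.

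The first CASTxWSB run stood apart in the circadian clock genes. The clock index, the mean of Arntl, Npas2 and Clock minus the mean of 5 genes of the opposite phase, was -1.41 in the 6 livers of that run (-1.85 to -1.09), against 1.74 and 1.85 in the other CASTxWSB runs and 1.10 and 1.70 in the WSBxCAST runs. In 1 CAST liver, forming a run of its own, it was -2.04, and in all other runs every liver was above 0. Ppp1r3g was high in those 7 livers, at 9.16 on average (7.92 to 10.62) in the CASTxWSB run and 9.75 in the CAST liver. The other CASTxWSB runs averaged 6.98 and 7.94 for Ppp1r3g. Without these 7 livers, an alternative chosen after seeing the data, the Ppp1r3g difference was 1.13 (adjusted p = 0.301). Pck1 (0.51, adjusted p = 0.000866), Ppargc1a (0.88, 0.00569), Foxo1 (0.65, 0.00916) and Tat (0.21, 0.00558) remained called without them. No label gives a collection time, and its part was not tested.

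The crosses also differed in genes that respond to fasting and to glucocorticoids. The fasting-fed index, the mean of 9 fasting-induced minus the mean of 11 fed-induced liver genes, none of them a member, was -0.31 ± 0.18 in CASTxWSB livers and -0.95 ± 0.27 in WSBxCAST livers (SD, n = 12 and 11). Its run means were -0.37, -0.28 and -0.19 in CASTxWSB and -0.91 and -1.13 in WSBxCAST livers, and no test is given because animals of a run are not independent. The mean of 10 glucocorticoid-induced genes was 10.45 ± 0.17 in CASTxWSB livers and 9.80 ± 0.39 in WSBxCAST livers, with run means of 10.38, 10.52 and 10.52 in CASTxWSB and 9.85 and 9.56 in WSBxCAST. With the fasting-fed index as a covariate, an alternative chosen after seeing the data, none of the 5 member differences was called, at 0.19 for Pck1, 0.27 for Ppargc1a, 0.29 for Foxo1, 0.12 for Tat and 1.14 for Ppp1r3g. Of the 10 glucocorticoid-induced genes 6 were higher in CASTxWSB and 0 lower (median 0.37), among them Mt1 (1.31) and Mt2 (1.28), where 5.62% of all genes were called. Of 9 fasting-induced genes 4 were higher, led by Cyp4a14 (1.82) and Lpin1 (1.31), and of 11 fed-induced genes 3 were higher and 1 lower. With runs as a random block 38 genes were called in place of 635, and of the list genes named for this contrast only Mt2 (adjusted p = 0.00025) and Cyp4a14 (0.032) were among them.

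Genes of the wider pathway were called in small numbers per list, to be read against the 5.62% of all genes. Of 17 tested other gluconeogenesis genes 3 were higher and 0 lower (median 0.04), including the aspartate aminotransferase gene Got1 (0.25) and the mitochondrial carrier gene Slc25a11 (0.16). Of 23 glycogen genes 2 were higher, the liver glycogen synthase gene Gys2 (0.34) and Ugp2 (0.24), which makes UDP-glucose. Of 30 hormone signalling and transcription regulators 6 were higher, among them Cebpb (0.71) and Klf15 (0.48), both activators of Pck1 in mouse liver. Of 10 amino acid catabolism genes 2 were higher, Aass (0.13) and Asl (0.15), and of 8 clock genes 1 was higher and 2 were lower, Arntl (-0.80) and Npas2 (-0.95). Arntl and Npas2 had the opposite sign without the runs of low clock index. The median over all genes was -0.006. The hepatocyte markers gave 0 called of 7, at 13.35 ± 0.03 in CASTxWSB and 13.35 ± 0.04 in WSBxCAST livers.

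Few members were called in liver in the other reciprocal pairs. Ppargc1a was higher in PWKxWSB, at 9.25, 10.07 and 10.92, than in WSBxPWK, at 9.0, 9.47 and 10.27 (n = 12 each), by 0.57 ± 0.15 (adjusted p = 0.0336, 1.22% of all genes called), the only called member. The second PWKxWSB run of 5 animals averaged 10.59 and the first, of 7, 9.77, against 9.46 and 9.57 in the WSBxPWK runs. Without that second run the difference was 0.08, without the first WSBxPWK run 0.51, and with runs as a block the adjusted p was 0.848. Leaving out any 1 of 10 single arrays also ended the call, with differences of 0.50 to 0.66 over all arrays left out. G6pc in the same pair differed by 0.28 ± 0.08 (adjusted p = 0.0522), with the 3 livers of the first WSBxPWK run at 12.17 on average and the other 9 WSBxPWK livers at 12.96. CASTxPWK and PWKxCAST differed in 0 members by limma, while 9.32% of all genes were called (2818 genes at an unadjusted p under 0.05). The reciprocal difference of the CAST-WSB pair exceeded that of the CAST-PWK pair for Ppp1r3g (by 2.33), Ppargc1a (0.88), Foxo1 (0.59), Pck1 (0.37) and Tat (0.17), where 10.5% of all genes were called, but for none of them with runs as a block (adjusted p between 0.248 and 0.475). Against the PWK-WSB pair, the CAST-WSB difference was not called for any member, where 1.27% of all genes were called. There the values were 1.44 for Ppp1r3g (adjusted p = 0.319) and 0.18 for Ppargc1a (0.833).

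In kidney, each reciprocal difference that passed the test concerned 1 member. Pck1 had 12.60, 12.81 and 12.98 in CASTxWSB kidneys (n = 11), against 12.27, 12.72 and 12.88 in WSBxCAST kidneys (n = 11), a difference of 0.17 ± 0.04 (adjusted p = 0.0132, 2.44% of all genes called). It was lost without WSBxCAST kidney replicate 10 (0.15), without the first CASTxWSB run (0.08), without the second WSBxCAST run (0.11) and with runs as a block (adjusted p = 0.874). G6pc had 12.71, 12.81 and 12.97 in PWKxWSB kidneys (n = 12), against 12.43, 12.52 and 12.73 in WSBxPWK kidneys (n = 10), and 11 of 12 PWKxWSB kidneys were above every WSBxPWK kidney. The difference was 0.24 ± 0.06 (adjusted p = 0.00816, 1% of all genes called), and the call ended with runs as a block (adjusted p = 0.66) and without arrays carrying markers of another organ (0.23, adjusted p = 0.0573). CASTxPWK and PWKxCAST kidneys differed in 0 members by limma (3.03% of all genes called, 1854 genes at an unadjusted p under 0.05). Set against each other, the reciprocal differences of 2 pairs differed for Ppargc1a (CAST-WSB over CAST-PWK, 0.31, 2.22% called, and PWK-WSB over CAST-PWK, 0.32, 2.13% called) and G6pc (CAST-WSB over PWK-WSB, -0.32, 0.558% called), none of them with runs as a block. Between the organs, the CASTxWSB minus WSBxCAST difference was larger in liver for Ppargc1a (by 0.63) and Foxo1 (by 0.51), with 1.99% of all genes called, and neither passed with runs as a block (adjusted p = 0.226 and 0.39).

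Averaged over both cross directions, F1 mice had less Ppargc1a signal than the mean of their inbred parents in both organs, although in liver the directions differed. In liver the F1 minus mid-parent difference was -0.65 ± 0.12 for CAST-PWK (adjusted p = 1.82e-05, blocked 0.00109), -0.45 ± 0.11 for CAST-WSB (adjusted p = 0.00124, blocked 0.0167) and -0.45 ± 0.11 for PWK-WSB (adjusted p = 0.00215, blocked 0.0557). Means were 9.39 in CASTxPWK and 9.48 in PWKxCAST livers, against 9.90 in CAST and 10.29 in PWK livers. For CAST-WSB they were 10.03 in CASTxWSB and 9.25 in WSBxCAST livers, against 9.90 in CAST and 10.28 in WSB livers, so the low value was that of WSBxCAST. For PWK-WSB they were 10.12 in PWKxWSB and 9.54 in WSBxPWK livers, against 10.29 in PWK and 10.28 in WSB livers. With the fasting-fed index as a covariate the CAST-WSB value was -0.03. The PWK-WSB value was -0.20 and not called without the first PWKxWSB run.

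In kidney the Ppargc1a difference was -0.18 ± 0.04 for CAST-PWK (adjusted p = 9.36e-05, blocked 0.0328), -0.34 ± 0.04 for CAST-WSB (adjusted p = 1.17e-11, blocked 4.44e-06) and -0.26 ± 0.04 for PWK-WSB (adjusted p = 4.03e-08, blocked 0.000925). The 6 F1 kidney means lay between 10.94 and 11.19, and the inbred means were 11.40 in CAST, 11.20 in PWK and 11.36 in WSB. Kidney Pck1 was also lower in F1 mice, by -0.18 ± 0.03, -0.25 ± 0.03 and -0.25 ± 0.03 for CAST-PWK, CAST-WSB and PWK-WSB (adjusted p = 4.96e-06, 5.23e-10 and 2.98e-10, all kept with runs as a block). The 6 F1 means of kidney Pck1 were 12.64 to 12.82, all below the CAST (12.97), PWK (13.02) and WSB (12.96) means.

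The enzymes did not all move this way in liver. G6pc was above the mid-parent value in CAST-WSB F1 livers by 0.26 ± 0.06 (adjusted p = 0.000178, blocked 0.00612), with means of 13.08 in CASTxWSB and 12.87 in WSBxCAST, against 12.56 in CAST and 12.85 in WSB livers. Without the WSB run of 6 animals it was 0.15 and not called. In kidney G6pc was below the mid-parent value for CAST-WSB (-0.14 ± 0.04, blocked adjusted p = 0.056) and PWK-WSB (-0.18 ± 0.04, blocked 0.0158). The effect in liver minus that in kidney was 0.43 for G6pc in CAST-WSB (33.7% of all genes called) and -0.50 for Ppargc1a in CAST-PWK (22.9% called). Ppp1r3b was above the mid-parent value in CAST-PWK livers by 0.31 ± 0.09 (adjusted p = 0.00674, blocked 0.082). Liver Pck1 was below it for CAST-WSB (-0.17 ± 0.06, blocked 0.195) and PWK-WSB (-0.23 ± 0.06, blocked 0.0242).

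In number, liver F1 minus mid-parent gave 1 member higher and 2 lower of 9 for CAST-PWK (18.7% of all genes called), 2 higher and 3 lower for CAST-WSB (25.3%) and 0 higher and 4 lower for PWK-WSB (17%). In kidney it gave 0 higher and 4 lower of 7 for CAST-PWK (33.7%), 0 higher and 3 lower for CAST-WSB (42.7%) and 0 higher and 6 lower for PWK-WSB (37.4%). The remaining calls in liver were Pcx in all 3 pairs (-0.11, -0.06 and -0.06), Tat in CAST-WSB (0.10) and Ppp1r3g in PWK-WSB (-0.89), of which only Pcx in CAST-PWK was kept with runs as a block (adjusted p = 0.0233). In kidney the remaining calls were Pcx and Foxo1 in CAST-PWK (-0.08 and -0.13) and PWK-WSB (-0.11 and -0.15) and Fbp1 in PWK-WSB (-0.05), none kept with runs as a block. Liver Ppp1r3g in PWK-WSB was lost without any 1 of 27 arrays (-0.99 to -0.75 over all), and liver Pcx without WSBxPWK replicate 12 or WSB replicate 10 (-0.06 and -0.06). Each mid-parent contrast shares inbred animals with the others.

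Between the sexes, 1 member was called in each organ. Ppp1r3b was higher in female than in male livers by 0.17 ± 0.06 (adjusted p = 0.0249, blocked 0.0344), the only member called where 13.8% of all genes were. Ppargc1a differed by 0.20 ± 0.08 (adjusted p = 0.0666) and was called with runs as a block (0.24, adjusted p = 0.0277). The largest liver value, 0.42 ± 0.22 for Ppp1r3g (adjusted p = 0.215), was uncertain and not called. In kidney, Pcx was lower in females by -0.06 ± 0.02 (adjusted p = 0.0483, blocked 0.0984, 10.9% of all genes called), a call that ended without any 1 of 60 arrays.

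Within crosses, 6 of the 9 liver genes followed the fasting-fed index from animal to animal. Deviations from the mean of each cross and sex were used, so differences between crosses do not enter. The index deviations had an SD of 0.333 log2 and ran from -1.178 to 0.739 over 101 livers. Per unit of the index, Ppp1r3g rose by 1.69 ± 0.28 (SE, adjusted p = 2.29e-06), Ppargc1a by 0.78 ± 0.08 (1.89e-12), Foxo1 by 0.48 ± 0.07 (4.57e-07), Pck1 by 0.38 ± 0.04 (1.11e-11), G6pc by 0.25 ± 0.05 (0.000162) and Tat by 0.12 ± 0.02 (3.55e-05). Of all genes 20.2% were called. Fbp1 (-0.00), Pcx (0.02) and Ppp1r3b (0.02) had slopes near 0 and were not called.

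**Figure D4:**
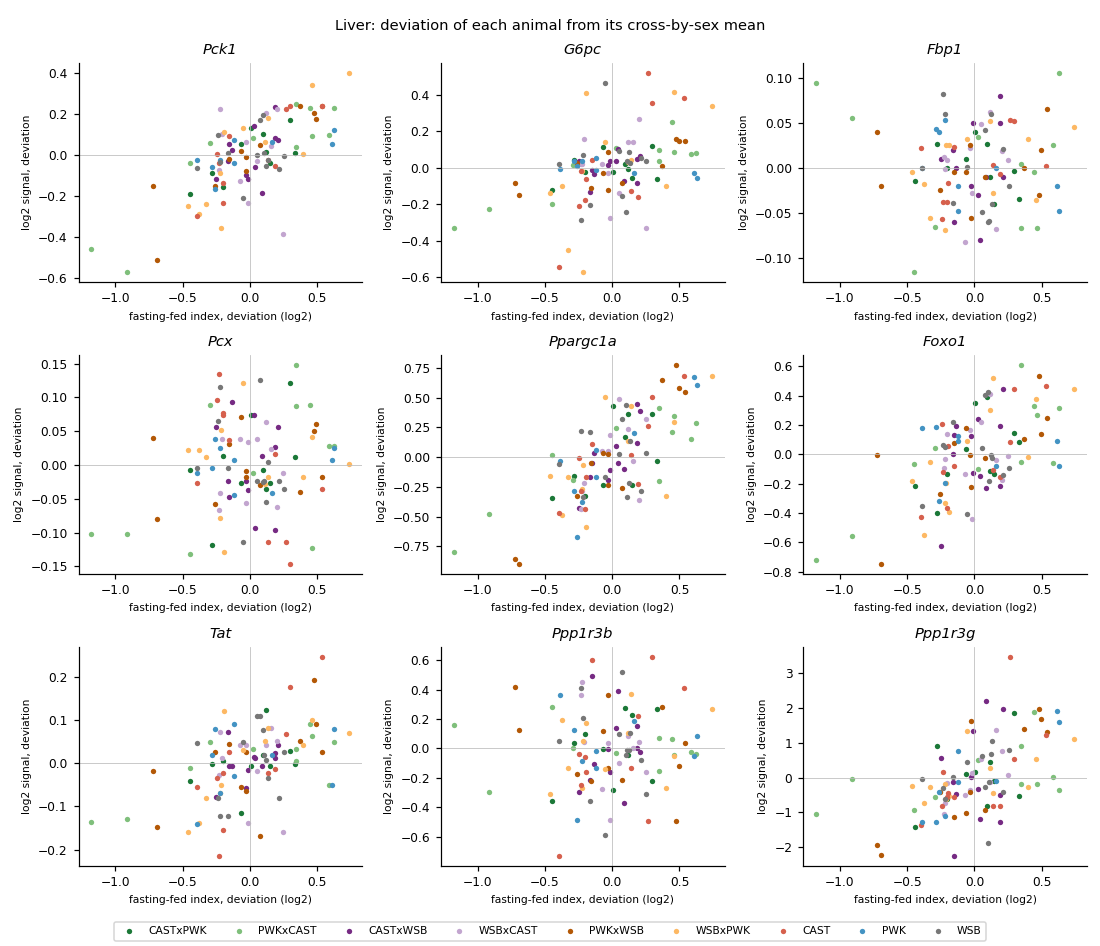
Deviation of each animal from the mean of its cross and sex in liver, with the fasting-fed index on the horizontal axes and the log2 signal of each gene on the vertical axes, coloured by cross. Ppargc1a, Pck1, Foxo1, Ppp1r3g, Tat and G6pc rise with the index (r = 0.73, 0.71, 0.58, 0.55, 0.50 and 0.46), and Fbp1, Pcx and Ppp1r3b show no slope past the test.

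The same relations as correlations were r = 0.73 for Ppargc1a, 0.71 for Pck1, 0.58 for Foxo1, 0.55 for Ppp1r3g, 0.50 for Tat and 0.46 for G6pc (n = 101, permutation p = 1e-05 for each, the smallest that 100000 resamples can give, adjusted 0.000216 over all 11292 genes). Spearman's rho was 0.66, 0.65, 0.48, 0.54, 0.48 and 0.45 in the same order, each with permutation p = 1e-05. Without the 2 animals farthest on the index, r was 0.71, 0.64, 0.51, 0.57, 0.46 and 0.41. Within runs (deviations from the mean of each run and sex, n = 91), r was 0.60, 0.65, 0.54, 0.44, 0.39 and 0.38, so each relation was also present between neighbouring animals. Foxo1 had r = 0.66 over the 68 F1 and 0.31 over the 33 inbred animals, a difference that was not tested. All 6 slopes were kept with runs as a random block.

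The slopes depended on how the index was built and on added covariates. With the clock and glucocorticoid indices as covariates, Pck1 (0.12), G6pc (0.11), Foxo1 (0.10) and Tat (0.01) were no longer called, and Ppargc1a and Ppp1r3g were. With the fed-induced genes alone, Foxo1 (0.27, adjusted p = 0.324), G6pc (0.26, 0.134) and Tat (0.12, 0.135) were not called. With the same lists measured in the kidney of the same animals, none of the 6 was (Ppargc1a 0.68, adjusted p = 0.0949). The liver and the kidney index correlated at r = 0.30 over 95 animals, and the part of the fat markers in the kidney index was not tested.

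Among other genes, of which 20.2% were called over the whole array, 9 of 10 glucocorticoid-induced genes rose with the liver index (median slope 0.48), among them Per1 (1.15) and Mt1 (1.10). Of 30 regulators 9 rose and 5 fell, with Cebpb (0.64) and Klf15 (0.38) rising. Irs2 and Pdk4 are in this regulator list and are also part of the index, so their slopes are not independent of it. Of 17 other gluconeogenesis genes 5 rose and 0 fell (median 0.05), including Got1 (0.18) and the malate dehydrogenase gene Mdh2 (0.06). Of 23 glycogen genes 0 rose and 2 fell, the phosphorylase kinase gene Phka1 (-0.19) and the glycogen synthase kinase gene Gsk3b (-0.16), and of 10 amino acid catabolism genes 1 rose, Asl (0.14). Of 8 clock genes Per2 fell (-0.39). The hepatocyte markers had 0 called of 7 (median slope 0.00).

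In kidney, 2 of 7 members followed the liver index, where 6.8% of all genes were called. G6pc rose by 0.14 ± 0.04 per unit (adjusted p = 0.0123, blocked 0.0183) and Ppargc1a by 0.13 ± 0.04 (adjusted p = 0.0118, blocked 0.0856). The correlations were r = 0.38 for each (n = 95, permutation p = 0.00017 and 0.00013), with rho = 0.40 and 0.41 (permutation p = 8e-05 and 3e-05), r = 0.36 and 0.38 without the 2 farthest animals, and 0.35 and 0.20 within runs. Kidney Pck1 did not pass (r = 0.16). Kidney Ppp1r3b had a slope of -0.01 on the liver index, and of -0.70 (adjusted p = 3.06e-08) on the same lists measured in kidney. Fat markers varied from 6.71 to 10.21 over kidney arrays, and their part in the slope on the kidney lists was not tested. Without the arrays that carried markers of another organ, the G6pc slope was 0.12 (adjusted p = 0.0761). With clock and glucocorticoid covariates the G6pc slope was -0.01 and the Ppargc1a slope 0.01. All 10 glucocorticoid-induced genes rose in kidney with the liver index (median 0.68), together with Pdk4 (0.85) and 2 of 21 glycogen genes, the glycogen phosphorylase gene Pygl (0.27) and Ppp1r3c (0.37), another glycogen-targeting subunit. Fat markers gave 1 of 7 rising, with a median slope of 0.38. The slope was steeper in liver than in kidney for Ppargc1a (by 0.65), Foxo1 (0.36) and Pck1 (0.33), with 9.51% of all genes called.

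Most liver members also followed the glucocorticoid-induced genes. The mean of the 10 genes correlated with Pck1 at r = 0.79, Ppargc1a 0.71, Foxo1 0.69, Tat 0.63, G6pc 0.49, Ppp1r3g 0.36 and Ppp1r3b 0.29 (n = 101, 7 of 9 members called, 21.9% of all genes called). The rank correlation (Spearman) was 0.73, 0.64, 0.60, 0.63, 0.47, 0.33 and 0.26, and r within runs was 0.70, 0.56, 0.64, 0.51, 0.45, 0.22 and 0.26. Permutation p was 1e-05 for r and for rho of the first 5 genes, the smallest possible. The permutations, here and in the other correlations, shuffled all animals freely. Their p-values thus treat animals of a run as independent and can overstate the evidence. For Ppp1r3g it was 0.00014 and 0.00083, and for Ppp1r3b 0.00394 and 0.0076. Adjusted p was 0.000245 for the first 5, 0.0019 for Ppp1r3g and 0.0237 for Ppp1r3b. The fasting-fed and glucocorticoid means were themselves correlated at r = 0.77 in liver.

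In kidney, its own glucocorticoid mean was related to 4 of 7 members, with 15.6% of all genes called. These were G6pc (r = 0.53), Ppargc1a (0.47), Foxo1 (0.38) and Pck1 (0.28), with rho of 0.48, 0.47, 0.33 and 0.32 (n = 102). Permutation p of r was 1e-05, 1e-05, 6e-05 and 0.00491, and adjusted p 0.000267, 0.000267, 0.00113 and 0.0355. Within runs, r was 0.40, 0.26, 0.35 and 0.26. The clock index related to Ppp1r3b (r = 0.31) and Ppp1r3g (-0.44) in liver, 2 of 9 with 19.3% of all genes called, and to G6pc (0.42) in kidney, 1 of 7 with 16.9% called. Permutation p was 0.00165, 2e-05 and 2e-05 (adjusted 0.0139, 0.000544 and 0.000882), with rho of 0.23, -0.28 and 0.33. Within runs these were 0.16, -0.09 and 0.25, so the liver relation of Ppp1r3g did not hold within runs. Kidney G6pc followed the clock index at r = 0.63 in 67 F1 and 0.09 in 35 inbred animals, a difference that was not tested.

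**Figure D5:**
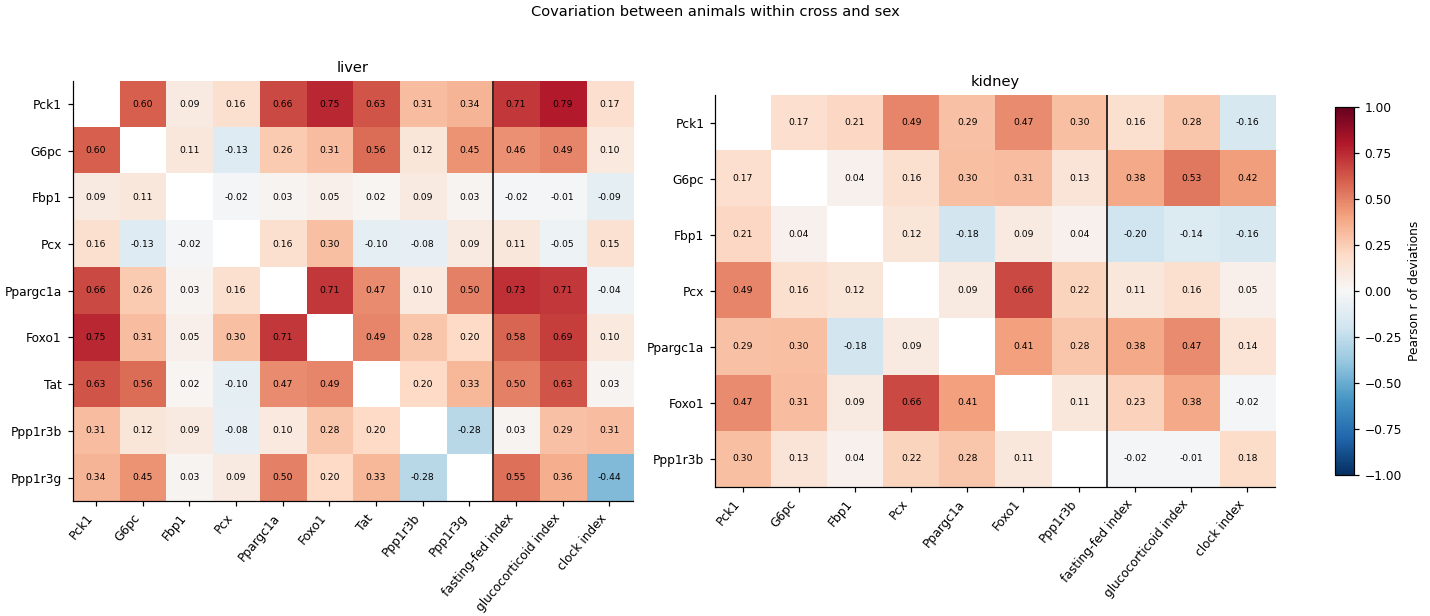
Pearson r between members, and between members and the 3 indices, for deviations from the mean of each cross and sex, as colours for liver and kidney. Pck1, Ppargc1a, Foxo1, Tat and G6pc form a block of positive r in liver (up to 0.75), and Fbp1 stands apart.

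The liver members fell into genes that varied together and genes that did not. Of 36 pairs 16 were called, 15 of them positive. The closest were Pck1 with Foxo1 (r = 0.75), Ppargc1a with Foxo1 (0.71), Pck1 with Ppargc1a (0.66), Pck1 with Tat (0.63), Pck1 with G6pc (0.60) and G6pc with Tat (0.56). Ppargc1a with Ppp1r3g had r = 0.50. Ppp1r3b and Ppp1r3g, the glycogen-targeting subunits, were related negatively (-0.28), and this pair was not among the 16 called within runs, all of which were positive. Fbp1 was called with no other member. Over the 33 inbred animals alone 4 pairs were called. These are read against how much of the array each gene follows: 17.9% of all genes were called with Pck1, 6.16% with G6pc, 7.31% with Fbp1, 52.4% with Pcx, 16.7% with Ppargc1a, 34.9% with Foxo1, 12.5% with Tat, 9.02% with Ppp1r3b and 27.9% with Ppp1r3g.

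In kidney 9 of 21 pairs were called, all positive, led by Pcx with Foxo1 (r = 0.66), Pck1 with Pcx (0.49), Pck1 with Foxo1 (0.47) and Ppargc1a with Foxo1 (0.41). There, 63.9% of all genes were called with Pcx, 69.1% with Foxo1, 55.9% with Ppargc1a, 39.1% with Pck1, 21.9% with Ppp1r3b, 10.1% with G6pc and 3.43% with Fbp1. The number of called pairs is to be read against these shares. The 95th percentile of r over all genes was 0.701 for Foxo1, 0.602 for Pcx, 0.58 for Ppargc1a and 0.369 for Pck1. Pcx with Foxo1 (0.66) was below that percentile for Foxo1 and above it for Pcx. Pck1 with Pcx (0.49) and Pck1 with Foxo1 (0.47) were above it for Pck1 and below it for the other gene. Ppargc1a with Foxo1 (0.41) was below it for both genes.

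The genes closest to each member differed by organ. In liver Pck1 was nearest to Lpin1 (r = 0.82) and Per1 (0.80), Ppargc1a to Lpin2 (0.86) and Lpin1 (0.82), and Foxo1 to Lpin1 (0.81) and Il6ra (0.78). G6pc was nearest to Tsc22d3 (0.81) and Noct (0.77), Tat to Slc25a51 (0.68) and Klf15 (0.67), and Ppp1r3g to Maff (0.66). Lpin1 is in the fasting-induced list, and Per1 and Tsc22d3 are in the glucocorticoid list. The closest genes of Pcx were Plod1 (0.74), of Ppp1r3b Cxxc1 (0.61), and of Fbp1 Ociad1 (0.58). In kidney Pck1 was nearest to Hlf (0.63), G6pc to Nfil3 (0.68), Pcx to Col4a1 (0.81), Ppargc1a to Ythdc1 (0.83), Foxo1 to Cachd1 (0.87) and Fbp1 to Prcp (0.58). Kidney Ppp1r3b was nearest to Acaca (0.71), Hk2 (0.71) and Fasn (0.67), of which Acaca and Fasn are in the fed-induced list. The part of the fat markers in these kidney relations was not tested.

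Liver and kidney of the same animal moved together for few members. Over 95 animals, Ppargc1a had r = 0.38 between its liver and kidney deviations (rho = 0.43, adjusted permutation p = 0.00392) and G6pc 0.32 (rho = 0.23, adjusted 0.0279), and 7.94% of 10348 genes were called. Within runs these were 0.13 and 0.23. Foxo1 (0.27, adjusted p = 0.0887), Ppp1r3b (0.11), Pck1 (-0.02), Fbp1 (-0.04) and Pcx (-0.09) were not called.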

How the data were processed

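Per the submitters' processing notes, the authors summarised the arrays with RMA in Affymetrix Expression Console, and the deposited values are log2 signals per transcript cluster. Whether organs were normalised together, and any litter, plate or collection day, are not given in the sources used here. Of 35556 clusters, 21218 had a single gene symbol in the platform annotation, 1881 several and 12457 none, and the highest-mean cluster of each symbol was kept (18820 genes). For each organ, genes at or above the 40th percentile of mean signal (11292) were fitted in limma 3.58.1 (R 4.3.3) with 18 cross-by-sex means and a trended prior, with Benjamini-Hochberg adjustment over all genes tested and a threshold of 0.05. Runs of animal numbers were split at gaps over 3. Fits without an array or run were judged at the p cutoff of the whole fit. Correlations used deviations from cross-by-sex means and 100000 permutations over all animals, which did not keep runs together. Alternatives covered filters, normalisation, run blocks, array weights, covariates and left-out arrays. The number of arrays limits precision. The scripts were tested on simulated data. The named genes are the members, the 3 genes nearest each member by r, and up to 2 called genes of each list with the smallest p. Members and lists were chosen with earlier results of these data known. Brain and lung arrays were used for levels only.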

Additional observations from a re-analysis of the deposited data

Results flagged for a closer look

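In 2 of 27 examined groups of 4 to 10 arrays, 1 array stood apart from the rest by Dixon's criterion, which chance gives in about 1 of 20 groups. Tat reached 7.63 in WSBxPWK kidney replicate 10, where the next highest array was 6.36, and this array is among the 11 with raised hepatocyte markers. Tat was 13.51 in CASTxPWK liver replicate 3, where the next highest was 13.39.

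The effect in liver minus the effect in kidney differed from 0 by an interaction test, chosen after seeing the data. For CAST minus PWK it was -1.19 for Ppp1r3b, -0.75 for G6pc, -0.59 for Ppargc1a and -0.35 for Foxo1. For CAST minus WSB it was -1.10 for Ppp1r3b, -0.41 for Ppargc1a, -0.37 for Foxo1, -0.21 for G6pc and 0.17 for Pcx. It was 0.54 for G6pc in PWK minus WSB, 0.43 for G6pc in CAST-WSB F1 minus mid-parent and -0.50 for Ppargc1a in CAST-PWK F1 minus mid-parent. For CASTxWSB minus WSBxCAST it was 0.63 for Ppargc1a and 0.51 for Foxo1. For the slope on the fasting-fed index it was 0.65 for Ppargc1a, 0.36 for Foxo1 and 0.33 for Pck1. The size of the Ppp1r3b values is uncertain, because its kidney signal lay close to the kidney filter. With runs as a random block, Foxo1 in CAST minus PWK (adjusted p = 0.0788), Foxo1 (0.0541), G6pc (0.117) and Ppargc1a (0.0687) in CAST minus WSB, and Ppargc1a (0.226) and Foxo1 (0.39) in CASTxWSB minus WSBxCAST were no longer called.

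Reciprocal differences were also set against each other, likewise after seeing the data. In liver the CAST-WSB difference exceeded the CAST-PWK difference by 2.33 for Ppp1r3g, 0.88 for Ppargc1a, 0.59 for Foxo1, 0.37 for Pck1 and 0.17 for Tat. In kidney it exceeded it by 0.31 for Ppargc1a, the PWK-WSB difference exceeded the CAST-PWK difference by 0.32 for Ppargc1a, and the CAST-WSB difference minus the PWK-WSB difference was -0.32 for G6pc. None of these 8 values was called with runs as a random block. In liver the CAST-WSB and PWK-WSB differences did not differ by the test for any member.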

How the results depend on the processing

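Of 1936 member values under alternatives, 1787 kept their side of the threshold without a called change of direction (among all values, 58 changed sign and were called in neither setting), 95 lost a call, 46 gained one and 8 turned round. Of 61 called contrasts, 47 kept their call whichever array was left out and 28 whichever run was left out. Runs as a random block ended 31 of 69 calls, the fasting-fed index as a covariate 16 of 61 and quantile normalisation 8 of 69, while array weights ended 0 of 69. Animal as a replicate block, pairing the organs of an animal (consensus correlation 0.084), ended 0 of 8 calls in liver minus kidney. The causes were not tested. Litter, feeding and collection time, in no label, limit every comparison between crosses.

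Called genes with runs as a random block numbered 10 (against 1052), 38 (635) and 6 (138) for the CAST-PWK, CAST-WSB and PWK-WSB reciprocal pairs in liver and 5 (342), 7 (275) and 4 (113) in kidney. For F1 minus mid-parent they were 797 (2108), 1251 (2853) and 513 (1924) in liver and 970 (3804), 2057 (4817) and 1161 (4220) in kidney, for sex in kidney 768 (1234) and for the liver slope 1468 (2278). Array weights gave 2285, 1211 and 483 for the liver reciprocal pairs and, in kidney, 773 for CAST-PWK, 230 for PWK-WSB and 2088 for sex. With the index as a covariate CASTxWSB minus WSBxCAST gave 102 in liver and 45 in kidney, and without the runs of low clock index 228 in liver. The 60th percentile filter gave 1260 for PWK-WSB F1 minus mid-parent in liver, which tests fewer genes. Without arrays carrying markers of another organ, kidney gave 181 for CAST-PWK, 44 for PWK-WSB and 717 for sex, and the additive model 71 for PWK-WSB. The liver slope gave 36 genes with kidney lists, 761 with clock and glucocorticoid covariates and 631 with run means. The kidney slope (768) gave 132 with the fed list, 1255 with kidney lists, 139 with clock and glucocorticoid covariates, 241 with run means and 1345 with marker covariates. Liver minus kidney gave 17378 without a filter (11460). Member pairs in inbred animals numbered 4 in each organ (16 in liver, 9 in kidney), and liver with kidney of the same animal gave 417 within runs and 208 in inbred animals (822).

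Values that turned round were the inbred r of Pcx with Foxo1 in liver (-0.01) and of Ppargc1a with Ppp1r3b in kidney (-0.36), and the kidney slopes of G6pc (-0.03 with the fed list, -0.01 with clock and glucocorticoid covariates) and Ppargc1a (-0.03 with kidney lists). With clock and glucocorticoid covariates the liver slopes of Ppp1r3b (-0.38), Cebpb (-0.02) and Per1 (-0.10) did, and that of Mdh2 with kidney lists (-0.00). Fbp1 in liver CAST minus WSB was 0.04 and G6pc in liver minus kidney -0.06 under quantile normalisation. For CAST-WSB F1 minus mid-parent in liver with the index as a covariate, Foxo1 was 0.23 and Pck1 0.03. Without the runs of low clock index, Arntl (0.27) and Npas2 (0.46) turned round in CASTxWSB minus WSBxCAST.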
